A study of Rattus norvegicus with 4 samples.

Results

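Followed on 4 arrays of rat hippocampus were 10 genes that encode neuropeptides, calcium-binding proteins and an extracellular matrix protein of hippocampal interneurons. The genes were Npy, Sst, Cck, Penk, Vip, Tac1, Crh, Pvalb, Calb2 and Reln. They were chosen by name as interneuron genes, and Gad2, which the study selected for its fall, was left out of them. Every probe set whose platform annotation gives 1 of these symbols and no other was taken, which gave 11 probe sets for the 10 genes out of 31042 probe sets other than Affymetrix controls. Reln had 2 probe sets and each other gene had 1. Stressed rats were male Wistar rats exposed to 4 weeks of chronic unpredictable mild stress, a changing series of mild stressors, and were 16 months old at dissection. Nonstressed controls were male Wistar rats of the same age under standard housing. Each group gave 2 arrays, each with total hippocampal RNA pooled from 3 rats, so the arrays carry no information on single rats, and it is not stated whether pools overlapped in the rats they drew on. The p-values therefore measure the spread between pools, part of which may be technical.

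Interneurons of the hippocampus release GABA and shape the firing of pyramidal and granule cells. Many of them also store neuropeptides in dense-core granules and release them during strong activity. The peptides are cut from larger precursors by prohormone convertases and act on G protein-coupled receptors. Parvalbumin and calretinin, encoded by Pvalb and Calb2, bind calcium and mark separate interneuron classes, while cholecystokinin, vasoactive intestinal peptide, somatostatin and neuropeptide Y mark further, partly overlapping ones. Some of these transcripts are not confined to interneurons, since Cck is also transcribed in principal cells and Penk in granule cells. In RNA of a whole hippocampus, fewer cells of a class and less RNA per cell cannot be told apart.

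The promoters of peptide genes are shown because several of them are classical targets of the cAMP pathway, and somatostatin is the gene in which the cAMP response element was defined. RefSeq sequence of the rat build GRCr8 was found for 6 of the 10 genes, namely Npy, Sst, Vip, Tac1, Pvalb and Reln. Each window ran from 250 bases before the annotated start of the gene to 50 bases after it. The full element TGACGTCA was searched on both strands and stood in 1 of these 6 windows, that of Sst, against 1.83% of 33469 rat windows of the same length. The core element TGACG, which is also part of the full one, stood on either strand in 4 of the 6, those of Sst, Vip, Tac1 and Pvalb, against 21.2% of all windows. The sequence AGAACA, a part of the glucocorticoid receptor element, was found on either strand in the window of Pvalb alone, against 20.7% of all windows. The complete receptor element was not searched. Below, the core element and, in Sst, the full element are in capitals, and the sequences read 5′ to 3′ on the strand of the gene. For Npy, the only gene with a fall past the test that has a window, the 250 bases before the start (chr4:80211861-80212110, plus strand) held no match. For Vip the same stretch (chr1:44470230-44470479, plus strand) held the core element 97 bases before the start. For Sst 30 bases are given (chr11:90461537-90461566, plus strand), in which the full element began at base 3 of the annotated transcript. The match in Tac1 (chr4:36645366-36645395, plus strand) lay on the other strand.
Npy: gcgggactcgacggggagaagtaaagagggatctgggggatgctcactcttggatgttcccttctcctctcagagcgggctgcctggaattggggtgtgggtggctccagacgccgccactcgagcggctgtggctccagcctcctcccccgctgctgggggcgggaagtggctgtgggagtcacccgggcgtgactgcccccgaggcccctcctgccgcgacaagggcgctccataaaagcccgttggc
Vip: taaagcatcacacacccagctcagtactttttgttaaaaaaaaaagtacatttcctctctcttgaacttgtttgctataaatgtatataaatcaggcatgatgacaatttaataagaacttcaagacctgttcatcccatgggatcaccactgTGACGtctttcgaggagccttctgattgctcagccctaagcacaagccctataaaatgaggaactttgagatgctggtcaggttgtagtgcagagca
Sst: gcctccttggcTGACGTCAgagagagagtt
Tac1: ccctaaaattgCGTCAtttcgaacccaatt
A match of letters is a description of the sequence and says nothing on binding in these rats.

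Signals are the deposited linear intensities, which the authors scaled to 1 target value on every array. Probe sets differ in how they hybridize, so signals were compared between arrays and never between genes. The 4 arrays had median signals of 79.6 to 82.3, and Pearson's r between arrays, across tested probe sets on the log2 scale, was 0.993 to 0.994 within groups and 0.972 to 0.974 between groups. A probe set was tested when its signal reached 100 on at least 2 arrays, which 14791 probe sets did. Of the 11 probe sets, 9 passed this filter, and each of the 9 was above 100 on all 4 arrays. These 9 belonged to 8 genes. Tac1 and Crh stayed below 100 on every array and were not tested.

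In stressed rats the signals of the neuropeptide genes fell by 25.1% for Penk, fell by 23.0% for Npy and fell by 15.4% for Cck, and no tested gene of the group passed the test for a rise. Stressed and control arrays were compared by limma on log2 signals, with adjustment of p by Benjamini-Hochberg over all 14791 tested probe sets, and every adjusted p below is from this fit unless another test is named. With each gene at its brightest probe set, 3 of the 8 tested genes fell at adjusted p under 0.05 and 5 did not pass, while 11.8% of all tested probe sets fell and 12% rose. None of the genes changed by 2-fold at an unadjusted p under 0.05, the study's own thresholds, which 1.38% of tested probe sets passed as lower and 0.216% as higher. The median log2 fold change of the 8 genes was -0.19, against 0.02 for all tested probe sets. Of the 8 genes, 7 had both stressed signals below both control signals. Reln had both above at its brighter probe set, which was counted, and both below at its dimmer one. Of all tested probe sets, 29.5% and 34.9% showed such a separation downward and upward. At an unadjusted p under 0.05 from limma, 4 genes were lower, with Pvalb added, and none was higher, against 17.6% and 20.4% of all tested probe sets. The methods' t-test, in which no spread is shared across probe sets, called none of the 8 genes in either direction after Benjamini-Hochberg adjustment. At its unadjusted threshold 4 genes were lower, Npy, Cck, Penk and Calb2, and none was higher, against 12% of all tested probe sets lower and 12.6% higher by that test on log2 signals. With 2 arrays against 2, an exact permutation test of a single gene cannot give a two-sided p under 0.333.

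**Figure D1:**
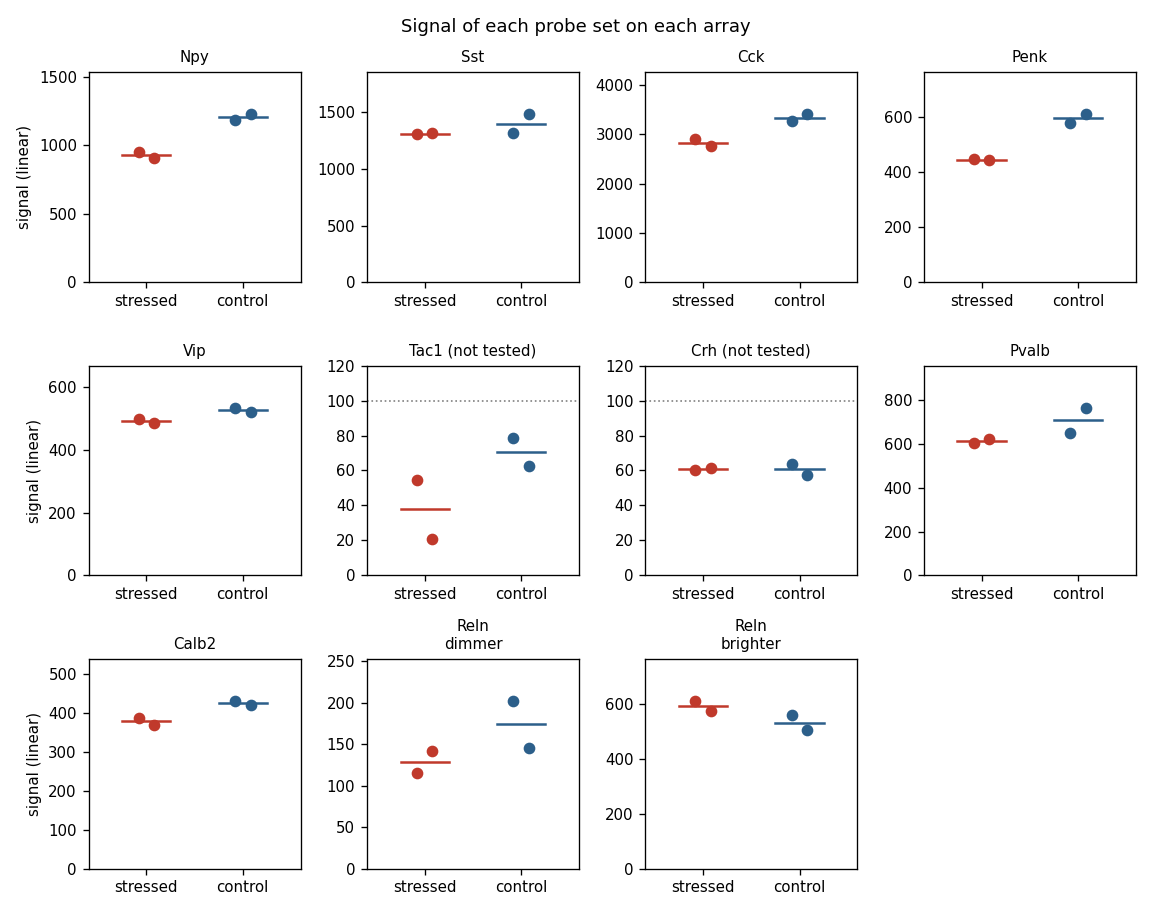
Signal of each of the 11 probe sets on a linear axis that starts at 0, with 1 point per array and a line at the group mean, stressed rats to the left of nonstressed controls. The stressed points of Npy, Cck and Penk lie clearly below the control points, while Tac1 and Crh lie under the dotted line at the minimum signal of 100.

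Neuropeptide Y, an inhibitory peptide that lowers glutamate release and is made by several interneuron classes including somatostatin cells, had signals of 949.6 and 908.8 in stressed rats, against 1185.1 and 1227.5 in nonstressed controls. The groups were 235 signal units apart at their nearest arrays, and the arrays within each group differed by far less. Npy averaged 929.2 ± 28.85 in stressed rats and 1206.3 ± 29.98 in nonstressed controls (SD, n = 2 arrays each). The log2 fold change of Npy was -0.38 (standard error 0.05, 95% interval -0.50 to -0.25, adjusted p = 0.00266). Among its receptors, Npy1r had signals of 183.1 and 199.5 in stressed rats and 204.0 and 201.1 in nonstressed controls and did not pass the test (adjusted p = 0.615). The brighter probe set of Npy5r had a log2 fold change of 0.31 and did not pass either, and Npy2r stayed at or below 19.4 on every array.

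Somatostatin is released by interneurons that target the distal dendrites of principal cells. The Sst signal was 1311.7 and 1314.9 in stressed rats, against 1316.1 and 1483.0 in nonstressed controls. Both stressed arrays and control replicate 1 were nearly level, and control replicate 2 alone was high, so that the groups were only 1.2 units apart. The log2 fold change was -0.09 (standard error 0.06, 95% interval -0.24 to 0.06, adjusted p = 0.346). Without control replicate 2 it was -0.003. The somatostatin receptor gene Sstr4 had signals of 73.3 and 89.7 in stressed rats and 159.0 and 148.6 in nonstressed controls, with no overlap. It met the filter through the control arrays alone, where it is high, so these signals are a description and no test of Sstr4 is given. The same holds for the dimmer probe set of Sstr2, which met the filter through the stressed arrays alone, with 103.7 and 115.1 in stressed rats and 72.8 and 62.5 in nonstressed controls. The brighter probe set of Sstr2 did not pass the test, at -0.07, nor did Sstr1 at -0.17 or Sstr3 at 0.27.

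Proenkephalin is the precursor of the enkephalins, opioid peptides that inhibit interneurons through mu and delta receptors. Penk had signals of 445.1 and 444.1 in stressed rats, against 578.6 and 608.4 in nonstressed controls. The stressed arrays were almost identical, and both lay more than 130 units below the lower control. Penk averaged 444.6 ± 0.71 in stressed rats and 593.5 ± 21.1 in nonstressed controls (SD, n = 2 arrays each). The log2 fold change was -0.42 (standard error 0.07, 95% interval -0.57 to -0.26, adjusted p = 0.00447). The opioid receptor genes Oprm1, Oprd1 and Oprk1 stayed below 30 on all arrays at each of their probe sets, and no change in them could be measured.

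Cholecystokinin marks basket cells that carry the cannabinoid receptor CB1. Cck had signals of 2899.4 and 2758.0 in stressed rats, against 3277.9 and 3407.5 in nonstressed controls. All 4 arrays were well separated by group, with a gap of 378 units. Cck averaged 2828.7 ± 99.98 in stressed rats and 3342.7 ± 91.64 in nonstressed controls (SD, n = 2 arrays each), a log2 fold change of -0.24 (standard error 0.05, 95% interval -0.35 to -0.13, adjusted p = 0.0104). This call was the least stable of the 3, since its adjusted p was 0.0756 when the moderation used no intensity trend, 0.0579 once stressed replicate 2 was left out and 0.0816 once control replicate 2 was. The receptor gene Cckbr did not pass, at -0.03 (adjusted p = 0.9). Cnr1, which encodes CB1, did not pass at its brighter probe set, at -0.04. Its dimmer probe set had signals of 99.5 and 106.1 in stressed rats and 259.3 and 301.0 in nonstressed controls, and since only the controls reached 100 on both arrays it is given without a test.

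Vasoactive intestinal peptide is made by interneurons that mostly inhibit other interneurons. Vip had signals of 498.3 and 486.4 in stressed rats, against 534.2 and 518.8 in nonstressed controls. The groups did not overlap but were only 20.5 units apart, and the log2 fold change was -0.10 (standard error 0.07, 95% interval -0.25 to 0.06, adjusted p = 0.322). Of its receptors, Vipr1 had a log2 fold change of -0.03 at its tested probe set and Vipr2 stayed under 100. Adcyap1r1 encodes a receptor that prefers the related peptide PACAP, and its signals were 1704.7 and 1593.4 in stressed rats against 1230.0 and 1328.8 in nonstressed controls. Its log2 signal rose by 0.37 (adjusted p = 0.00458).

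Tac1, the precursor of substance P, had signals of 54.8 and 20.7 in stressed rats, against 78.4 and 62.4 in nonstressed controls. Both stressed arrays were lower, but every signal was under the minimum and the stressed arrays differed from each other by more than the groups did. Crh, which encodes corticotropin-releasing hormone, the peptide that starts the endocrine stress response and that some hippocampal interneurons make, had signals of 60.3 and 61.4 in stressed rats, against 63.9 and 57.5 in nonstressed controls. The groups of Crh overlapped. At this signal no level of either transcript could be established. The genes Tacr1 and Tacr3 of tachykinin receptors and Crhbp, which encodes the binding protein of corticotropin-releasing hormone, were also under 100 on every array.

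**Figure D2:**
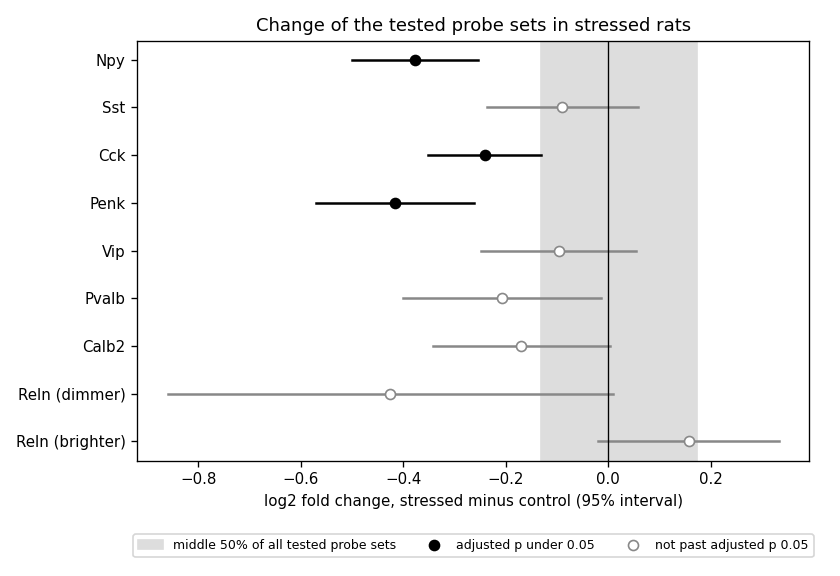
Log2 fold change, stressed minus control, of the 9 tested probe sets as points with 95% intervals from limma. Filled points mark adjusted p under 0.05, reached by Npy, Cck and Penk, and the grey band from -0.13 to 0.17 holds the middle 50% of all tested probe sets.

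The calcium-binding proteins were lower in the stressed samples by smaller amounts that did not pass the test. Parvalbumin marks fast-spiking basket and axo-axonic cells, and Pvalb had signals of 602.7 and 621.4 in stressed rats, against 651.5 and 765.9 in nonstressed controls. As with Sst, control replicate 2 stood above the other 3 arrays. The log2 fold change of Pvalb was -0.21 (standard error 0.08, 95% interval -0.40 to -0.01, adjusted p = 0.11). Leaving out control replicate 2 gave -0.09 with an adjusted p of 0.478, and leaving out control replicate 1 gave -0.32 with an adjusted p of 0.0466, both from limma, so that the value of Pvalb rested on which control was kept. Calretinin marks interneurons that contact other interneurons. Calb2 had signals of 386.6 and 369.3 in stressed rats, against 430.5 and 419.5 in nonstressed controls, with no overlap and a gap of 32.9 units. Its log2 fold change was -0.17 (standard error 0.07, 95% interval -0.34 to 0.003, adjusted p = 0.138) and kept its sign with each array left out, at -0.20 to -0.14.

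Reelin is a secreted matrix protein that interneurons and Cajal-Retzius cells release in the adult hippocampus, and its 2 probe sets went opposite ways without passing the test. At the dimmer probe set, annotated to an mRNA record of Reln, the signals were 115.0 and 142.3 in stressed rats, against 202.4 and 145.8 in nonstressed controls. Only control replicate 1 was high, and the groups were 3.5 units apart. The log2 fold change there was -0.43 (standard error 0.19, 95% interval -0.86 to 0.01, adjusted p = 0.139), and -0.19 without control replicate 1. At the brighter probe set, annotated to an expressed sequence tag, the signals were 613.7 and 575.8 in stressed rats, against 561.9 and 505.9 in nonstressed controls. This gave a log2 fold change of 0.16 (standard error 0.08, 95% interval -0.02 to 0.33, adjusted p = 0.173), and 0.08 without control replicate 2. No direction was therefore given for Reln. Its receptor gene Lrp8 had signals of 633.3 and 599.1 in stressed rats and 471.1 and 447.2 in nonstressed controls, and its log2 signal rose by 0.42 (adjusted p = 0.00469). The other receptor gene, Vldlr, rose by 0.33 at its brightest probe set and fell by 0.37 at the next one, with another tested probe set at -0.02, and Dab1, the adaptor of both receptors, did not pass at 0.15.

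**Figure D3:**
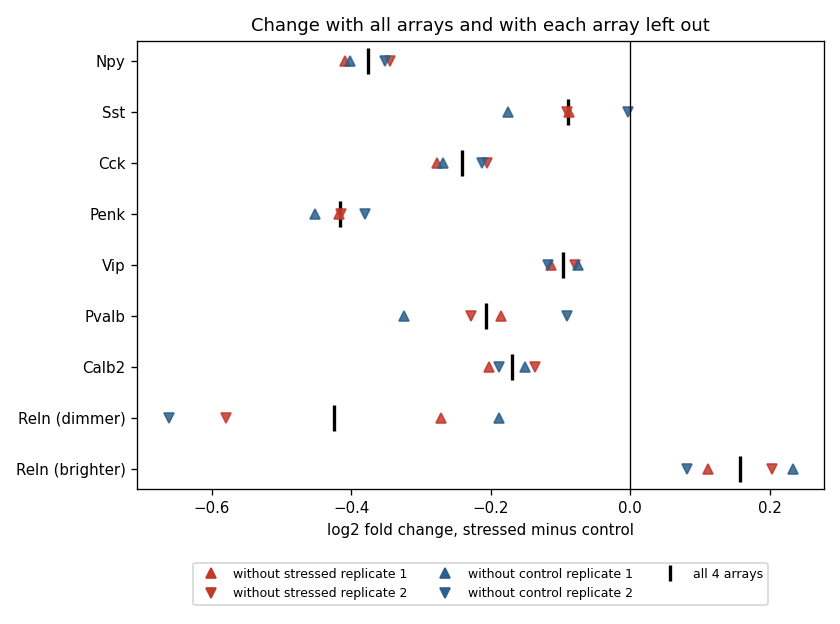
Log2 fold change, stressed minus control, of the 9 tested probe sets with all 4 arrays (black bars) and with each array left out in turn (triangles). Npy, Penk and Cck stay between -0.45 and -0.21, whereas Sst reaches -0.003 and Pvalb -0.09 without control replicate 2.

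Among 12 tested genes of peptide and reelin receptors and their partners, 3 rose, Adcyap1r1, Lrp8 and Vldlr, 8 did not pass, and Sstr4 had entered through the controls alone. The median log2 fold change was 0.06 over the 12 and 0.15 over the 11 without Sstr4, none of which fell at its brightest probe set at an adjusted or unadjusted p under 0.05 from limma, nor by the methods' t-test after adjustment. Of 18 tested genes of prohormone processing and dense-core granules, 2 rose, 1 fell and 15 did not pass, with a median of 0.04. Beside both lists, 11.8% of all tested probe sets fell and 12% rose at adjusted p under 0.05. At an unadjusted p under 0.05 from limma these shares were 17.6% and 20.4%. Scg3, a granin that sorts prohormones into granules, had signals of 6008.3 and 5853.2 in stressed rats, against 4775.2 and 4675.5 in nonstressed controls, and rose by 0.33 (adjusted p = 0.00204). The granin Chgb rose by 0.17, and Qpct, which modifies the first residue of some peptides, fell by 0.61, although its stressed signals were only 103.1 and 111.9. The convertase Pcsk2 (0.05), the carboxypeptidase Cpe (0.10) and the amidating enzyme Pam (0.09), which carry out the main steps of peptide maturation, did not pass the test.

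Among 14 tested interneuron markers outside the 10 genes, 3 fell, none rose and 11 did not pass, with a median of -0.08. Npas1, not among the 3, met the filter through the controls alone, and the median of the other 13 was -0.06. At an unadjusted p under 0.05 from limma 4 were lower, or 3 without Npas1, and none was higher. The methods' t-test called none in either direction after adjustment. For this list and the precursors below, the shares over all tested probe sets were 11.8% lower and 12% higher at adjusted p under 0.05. At the unadjusted threshold from limma they were 17.6% and 20.4%. Slc32a1, which loads GABA into vesicles, had signals of 598.0 and 595.1 in stressed rats, against 764.4 and 793.1 in nonstressed controls, which was -0.38 on the log2 scale (adjusted p = 0.0036). Sox6, a transcription factor of parvalbumin and somatostatin cells, fell by 0.51, and Satb1, a second factor of these cells, fell by 0.29 at the brighter and rose by 0.27 at the dimmer of its probe sets. Gad1, which makes GABA, did not pass, at 0.01 (adjusted p = 0.866). Of 9 further tested neuropeptide precursors 1 fell, none rose and 8 did not pass, with a median of 0.03. At an unadjusted p under 0.05 from limma the same 1 was lower and none higher, and the methods' t-test called none after adjustment. The precursor that fell was neurotensin, Nts, with signals of 541.2 and 553.5 in stressed rats, against 728.1 and 727.0 in nonstressed controls, which was -0.41 on the log2 scale (adjusted p = 0.00288). Cartpt (-0.24) and Pdyn (0.16), which encode the CART and dynorphin precursors, did not pass.

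**Figure D4:**
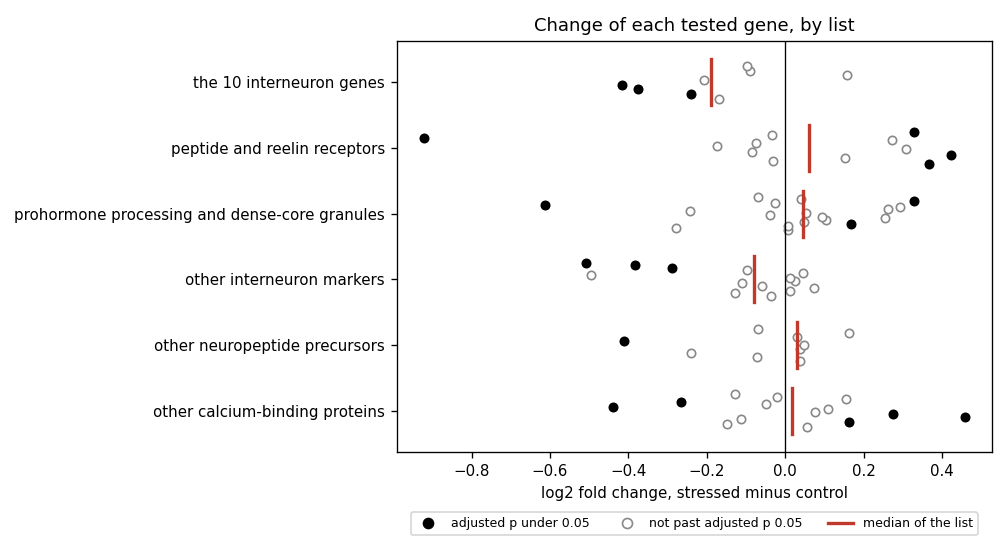
Log2 fold change, stressed minus control, of each tested gene at its brightest probe set, by list, with filled points at adjusted p under 0.05 and a red bar at the median of the list. The median of the 10 interneuron genes, of which 8 were tested, lies at -0.19 and those of the other 5 lists lie between -0.08 and 0.06, and that of the receptors is 0.15 without Sstr4. The filled point of Sstr4 is no test, since this gene met the filter through the controls alone.

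Markers of the labelled tissue and of its neighbours were read beside these values. Over all tested probe sets 11.8% fell and 12% rose at adjusted p under 0.05. At an unadjusted p under 0.05 from limma these shares were 17.6% and 20.4%. Of the granule cell genes with a probe set, 3 of 4 were tested, and of those of the CA fields 8 of 10, while Tdo2, Iyd and Cacng5 stayed under 100. Granule cell genes summed to 988.1 to 991.6 in stressed rats and 869.5 to 885.8 in nonstressed controls. Dsp, which is part of this sum, had 151.6 and 143.1 in stressed rats and 75.1 and 81.3 in nonstressed controls. It met the filter through the stressed arrays alone, and the other 2 tested did not pass. CA field genes summed to 8673 to 8759 in stressed rats and 8819 to 9303 in nonstressed controls. By limma Pou3f1 fell by 0.55, Rgs14 and Amigo2 each rose by 0.23, and 5 did not pass. Penk and Tac1 are also strong striatal genes, and of 7 striatal markers 3 stayed under 100 on all arrays, Drd2, Adora2a and Gpr6, with highest signals of 51.3, 45.2 and 7.6. The summed signal of the 7 was 2192 to 2285 in stressed rats and 2440 to 2442 in nonstressed controls. Of the 3 tested ones Pde10a fell by 0.29, while Ppp1r1b (-0.05) and Rgs9 (0.10) did not pass. Drd1, not tested, had 89.8 and 116.3 in stressed rats and 77.7 and 86.9 in nonstressed controls at its brighter probe set. The Cajal-Retzius genes Lhx1 and Lhx5 reached at most 17.3. Of 8 tested choroid plexus markers 6 rose and none fell by limma, but Cldn2 and Aqp1 met the filter through the stressed arrays alone, and 4 of the other 6 rose. The summed signal of all 10 choroid plexus genes with a probe set was 18953 to 20198 in stressed rats against 14528 to 16345 in nonstressed controls, although Kl and Kcnj13 stayed under 100. Most of this sum was Ttr, with 12992.4 and 11938.5 in stressed rats and 9449.9 and 11337.7 in nonstressed controls. Ttr did not pass (adjusted p = 0.0579 from limma). Of 5 tested endothelial markers 3 rose and none fell by limma, with sums of 3160.5 to 3199 in stressed rats and 2769 to 2856 in nonstressed controls. For both of these lists the methods' t-test was not counted, and at an unadjusted p under 0.05 from limma 7 choroid plexus markers, or 5 without Cldn2 and Aqp1, and 3 endothelial markers were higher and none lower. Astrocyte markers summed to 35858 to 36329 in stressed rats and 31666 to 32324 in nonstressed controls. At their brightest probe sets 1 of 7 tested rose by limma and none fell. Over all 11 tested astrocyte probe sets 1 rose and 2 fell, which were dimmer ones of Aqp4 (-1.30) and Slc1a3 (-0.43). Markers of cortical layers summed to 737.3 to 760.8 in stressed rats and 944.0 to 972.4 in nonstressed controls. Of the 3 tested, Rorb fell, with 111.7 and 132.9 in stressed rats and 273.1 and 257.6 in nonstressed controls. Fezf2 (-0.22) and Cux2 (0.03 at its brighter probe set, 0.30 at its dimmer one) did not pass. The median log2 fold change of the 3 was -0.22, and Tbr1, Foxp2 and Rspo1 stayed under 100. Hypothalamic markers summed to 258.0 to 305.7 in stressed rats and 309.3 to 326.5 in nonstressed controls. Avp, Oxt, Pmch, Pomc and Otp were under 100, so their part of this sum gave no usable value. The 1 tested gene, Hcrt, had 123.3 and 103.7 in stressed rats and 142.4 and 159.1 in nonstressed controls. It did not pass (log2 fold change -0.41, adjusted p = 0.0816 from limma). The remaining lists were read by limma at the brightest probe set of each gene. Of 5 tested thalamus and habenula markers none passed, nor did the 1 tested blood marker. Of 5 tested oligodendrocyte markers 1 fell and 1 rose, and of 4 tested microglia markers 1 fell and 1 rose. The share of all these markers in the values of Npy, Cck and Penk was not tested.

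**Figure D5:**
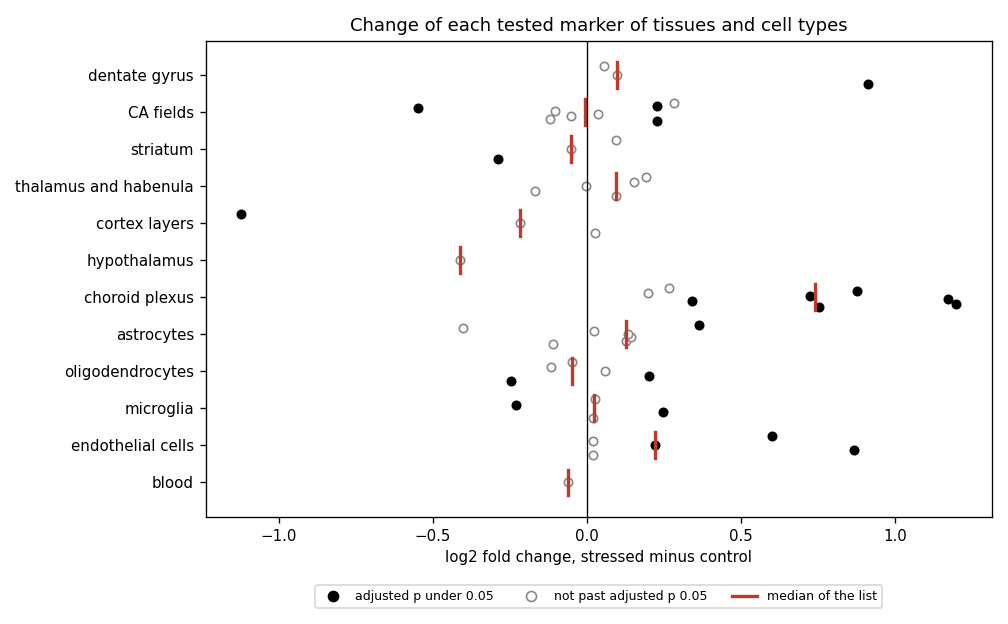
Log2 fold change, stressed minus control, of each tested marker of hippocampal fields, neighbouring regions and other cell types, with filled points at adjusted p under 0.05 and a red bar at the median of the list. The medians of choroid plexus, at 0.74 (0.53 without Cldn2 and Aqp1), and endothelial cells, at 0.22, are the highest. The filled points of Cldn2, Aqp1 and the granule cell gene Dsp are no test, since these met the filter through the stressed arrays alone.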

How the data were processed

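The samples were 4 arrays of rat hippocampal RNA, 2 of stressed rats and 2 of nonstressed controls. The authors hybridized pooled RNA to Affymetrix Rat Genome 230 2.0 arrays and deposited linear signal intensities made with GCOS 1.4 at a target value of 300. No detection calls were used here. From these, log2 signals were taken, with a signal of 0 set to 0.1, and the 57 Affymetrix controls were dropped. Of 31042 remaining probe sets, 20826 had a single gene symbol, 436 several and 9780 none in the platform annotation.

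Groups were compared with limma 3.58.1 (R 4.3.3), using an intensity trend and no block, and the moderated test had 7.73 degrees of freedom. Intervals are 95% intervals of this test. The script was tested on simulated data. Tables and plots used python 3.11.15, pandas 2.3.3, numpy 2.4.6, scipy 1.17.1 and matplotlib 3.10.9. A gene was counted by its brightest tested probe set. Named were all 10 genes and the 3 genes of smallest p in each related list. Other names were chosen after their values were seen. The 10 genes, the lists and the tests were chosen with earlier results of these data known. The number of arrays limits the precision.

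The alternatives were quantile normalization, median centring, other filters on dim probe sets, an offset or floor of 50, no intensity trend, the methods' t-test, a block for the replicate number, leaving out each array, averaging a gene's probe sets, and the study's thresholds.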

Additional observations from a re-analysis of the deposited data

How the results depend on the processing

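Npy, Penk and Cck were the genes lower in stressed rats at adjusted p under 0.05 from limma, 3 of 8, and the count stayed at 3 under quantile normalization, median centring, every filter on dim probe sets, the offset and floor of 50, and averaging of a gene's probe sets. It was 2 without an intensity trend, where Cck was lost, and 2 to 4 with an array left out, since Cck was lost without stressed replicate 2 or control replicate 2 and Pvalb was added without control replicate 1. It was 0 by the methods' t-test on log2 signals (adjusted p 0.13 for Npy, 0.177 for Cck and 0.118 for Penk) and 0 by that test on linear signals. At 2-fold with unadjusted p under 0.05 from limma it was also 0. No gene rose in any of these settings. Where a log2 fold change was recomputed for a single probe set of the 8 genes it kept its sign. Averaging the probe sets of Reln, a setting added after seeing the data, turned the 0.16 of its brighter one to -0.13 (adjusted p = 0.443 from limma). The dimmer Reln probe set had no value at a minimum of 200. Median centring and quantile normalization moved the median of all tested probe sets by -0.0015 and -0.0021. The arrays share replicate numbers, but nothing states that a number pairs them, and the deviations of same-numbered arrays correlated at -0.11. With the replicate number as a block the count was 3, against 1391 falls and 1281 rises over all tested probe sets. With the numbers crossed, a pairing added after seeing the data, it was 3, against 1970 and 2069. Over all tested probe sets the falls were 1744 and the rises 1771 in the reported setting, 1147 and 1000 without an intensity trend, 14 and 4 by the methods' t-test on log2 signals, 12 and 4 on linear signals, and 791 to 1342 and 650 to 1148 with an array left out. Over all alternatives, 0 to 3 receptors rose. In the reported setting the only receptor gene lower at its brightest probe set was Sstr4. Sstr4 met the filter through the controls alone and is not counted as a fall. Falls and rises ranged from 0 to 2 and 0 to 3 for prohormone processing and granules. They were 0 to 4 and 0 to 0 for other interneuron markers and 0 to 1 and 0 to 1 for other precursors. For other calcium-binding proteins they were 0 to 5 and 0 to 4. The causes were not tested. A probe set under a signal of 100 gave no usable value.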

Other observations

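The calcium-binding proteins beyond parvalbumin and calretinin went both ways in stressed rats. Of 14 tested genes 2 fell and 3 rose by limma, and 9 missed the threshold, with a median log2 fold change of 0.02. Over all tested probe sets 11.8% fell and 12% rose. When a gene's tested probe sets were averaged, 4 fell and 1 rose. Calbindin, encoded by Calb1 and abundant in granule cells, had signals of 1300.2 and 1175.2 in stressed rats, against 1322.7 and 1417.5 in nonstressed controls, and did not pass (log2 fold change -0.15, adjusted p = 0.137). Necab2, a neuronal calcium-binding protein, had signals of 1517.8 and 1507.7 in stressed rats, against 1943.1 and 2166.6 in nonstressed controls, and fell by 0.44 (adjusted p = 0.00221). Pcp4, which was counted in this list as a calmodulin regulator, fell by 0.27. Hpcal1, a calcium sensor of the hippocalcin family, had signals of 794.8 and 788.0 in stressed rats, against 578.6 and 573.5 in nonstressed controls, and rose by 0.46 (adjusted p = 0.00154). Its relative Hpcal4 rose by 0.28 at the brightest probe set but fell by 0.92 at a dimmer one, and the difference between these probe sets was not tested. Its dimmest probe set, with 104.0 and 99.3 in stressed rats and 171.7 and 188.2 in nonstressed controls, reached 100 on both arrays of the controls only and is given without a test.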
